A study of Homo sapiens with 74 samples.

Results

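The genes described here are 10 genes of the amino acid stress response governed by the transcription factor ATF4, out of the 28131 genes listed in the count tables. They were taken from a given list of symbols: ATF4 itself, the transcription factors DDIT3 and CEBPB, the stress regulators CHAC1, TRIB3 and SESN2, the amino acid enzymes ASNS, PSAT1 and PHGDH, and the lipoprotein receptor VLDLR. All 10 were found in both tables. The rule itself uses no measured value, but the genes were listed with earlier results of these data known.

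The series examined the complex of DOT1L, the methyltransferase of lysine 79 of histone H3, in transcription in human cells. Of its 74 samples, 13 were RNA-seq of polyadenylated RNA and were used, and the other 61 were not analysed here. K562 and HEL are established human leukaemia cell lines of erythroid character. The K562 groups were a wild-type control, a DOT1L knockout (DOT1L-/-, here DOT1L KO) and a knockout of ENL (ENL-/-, here ENL KO), the chromatin reader encoded by MLLT1 that binds DOT1L. The HEL groups were a control and a DOT1L knockdown (DOT1L KD). The labels name no amino acid shortage or other stress, so the levels compared are those of unstressed culture as labelled. K562 was grown in DMEM and HEL in RPMI-1640 with beta-mercaptoethanol. The labels do not say which clone, guide or hairpin was used, nor whether replicates came from separate cultures, so p-values measure only the spread between these libraries, which may be technical.

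The second and the third control column of K562 had no gene with unequal counts and entered as 1 library. K562 was thus represented by 2 libraries of the control and 3 of each knockout, with 15404944 to 29236703 fragments, and 2 control and 2 DOT1L KD libraries of HEL with 12151495 to 12811688 reads. Levels are given as CPM, the counts per 1000000 counts of a library after scaling for composition. A count of 0 allows up to 0.101 to 0.195 CPM in K562 and 0.238 to 0.244 CPM in HEL, for counting error only. The targeted gene DOT1L itself fell to 0.694 of control in the DOT1L KO and to 0.320 in the HEL KD, and MLLT1 to 0.715 in the ENL KO. Other libraries of a group differed beyond sampling noise. All 9 erythroid markers examined had counts in each group, and 8 of the 9 rose in the DOT1L KO. The summed level of 10 markers of other cell types was 237 to 238 CPM in K562 controls, 415 to 454 CPM in the DOT1L KO and 196 to 215 CPM in the ENL KO, and MS4A1 of B cells had no count in any library. Single markers moved in both directions in the DOT1L KO. LYZ, lysozyme, rose and was at 34.0 ± 1.95 (SD, n = 2) CPM in controls and 310 ± 17.1 (n = 3) CPM in the knockout. CD3D of T cells fell from 51.9 to 17.4 CPM (log2 fold change -1.58) and the epithelial EPCAM from 120 to 81.8 CPM (-0.56). In HEL the sum was 334 to 342 CPM in controls and 569 to 573 CPM in the KD, mostly PECAM1, and 4 of the 10 markers had no count in either group. The part of these shifts in the results below was not tested. In such bulk libraries, fewer cells of a type and less RNA per cell cannot be told apart.

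ATF4 is a bZIP transcription factor whose translation is raised when eIF2alpha is phosphorylated by one of the stress kinases GCN2, PERK, HRI and PKR. It binds, as a dimer with C/EBP family partners, to composite elements in genes that make, import and charge amino acids, and in genes that end the response or promote cell death when stress persists. Because ATF4 is controlled largely in translation, its mRNA level does not report the amount of ATF4 protein. The composite C/EBP-ATF element reads TGATGNAA, and its most common form in these genes, TGATGCAA, is one case of it.

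The RefSeq promoter windows of GRCh38.p14, from 250 bases before to 50 after each start, were searched on both strands for these letters. All 10 genes had a window. TGATGNAA occurred in 1217 of 27305 genes with a window (4.46%) and TGATGCAA in 295 (1.08%). Of the 10 genes, ASNS held TGATGAAA 68 to 61 bases before a RefSeq start, on the gene's own strand. The 250 bases upstream of that start are chr7:97872409-97872658. They lie inside the gene as listed in the count tables, whose first base is at chr7:97928562. Another ASNS window held no match. CHAC1 held TGATGCAA 209 to 202 bases before the start on the opposite strand, where it reads TTGCATCA. A match describes letters, not binding. These sequences, with the element in capitals, show the motif in the pair of genes and in 4 of the other pathway genes with a match that are described below. ASNS lies at chr7:97872458-97872487 (minus strand), CHAC1 at chr15:40953251-40953280 (plus), SLC1A4 at chr2:64989381-64989410 (plus), JDP2 at chr14:75427995-75428024 (plus), AARS (now AARS1) at chr16:70289675-70289704 (minus) and IARS (now IARS1) at chr9:92293692-92293721 (minus).
ASNS: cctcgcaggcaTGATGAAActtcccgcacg
CHAC1: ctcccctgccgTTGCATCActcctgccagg
SLC1A4: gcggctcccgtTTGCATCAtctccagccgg
JDP2: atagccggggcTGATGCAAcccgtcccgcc
AARS: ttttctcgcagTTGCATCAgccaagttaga
IARS: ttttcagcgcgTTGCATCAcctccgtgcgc

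The whole 250 bases upstream of the CHAC1 start, chr15:40953221-40953470 on the plus strand, are given because CHAC1 is the 1 of the 10 genes that holds TGATGCAA.
CHAC1 upstream: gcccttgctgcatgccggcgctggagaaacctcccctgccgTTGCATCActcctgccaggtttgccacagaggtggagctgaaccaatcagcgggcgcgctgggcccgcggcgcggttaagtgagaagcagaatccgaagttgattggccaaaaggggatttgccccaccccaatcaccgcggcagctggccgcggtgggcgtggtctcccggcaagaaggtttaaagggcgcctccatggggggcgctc

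The 10 genes covered a wide range of levels. Per kilobase of exon (RPKM, CPM divided by exonic length), K562 controls had most ATF4 at 186 ± 3.58 (SD, n = 2 throughout for controls), followed by PSAT1 at 52.4 ± 0.543, TRIB3 at 49.8 ± 3.68 and PHGDH at 36.6 ± 0.975. PSAT1 and TRIB3 did not differ beyond the spread between libraries. CEBPB at 21.9 ± 0.208, SESN2 at 21.1 ± 0.169 and DDIT3 at 18.2 ± 0.738 came next. CHAC1 at 7.07 ± 0.631, ASNS at 0.881 ± 0.000427 and VLDLR at 0.111 ± 0.0175 RPKM were the lowest. The ASNS level is uncertain in both lines, because 78.7% of its exonic bases are also listed for the readthrough gene CZ1P-ASNS. In HEL controls ATF4 also led at 99.8 ± 3.10 RPKM, but PHGDH at 40.6 ± 0.487 stood above PSAT1 at 18.4 ± 0.566 and DDIT3 at 16.4 ± 0.50. TRIB3 at 6.95 ± 0.0314, CEBPB at 4.57 ± 0.460, SESN2 at 3.02 ± 0.0182 and VLDLR at 2.57 ± 0.149 RPKM formed the middle of the order in HEL, and CHAC1 and ASNS were under 1 RPKM.

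**Figure D1:**
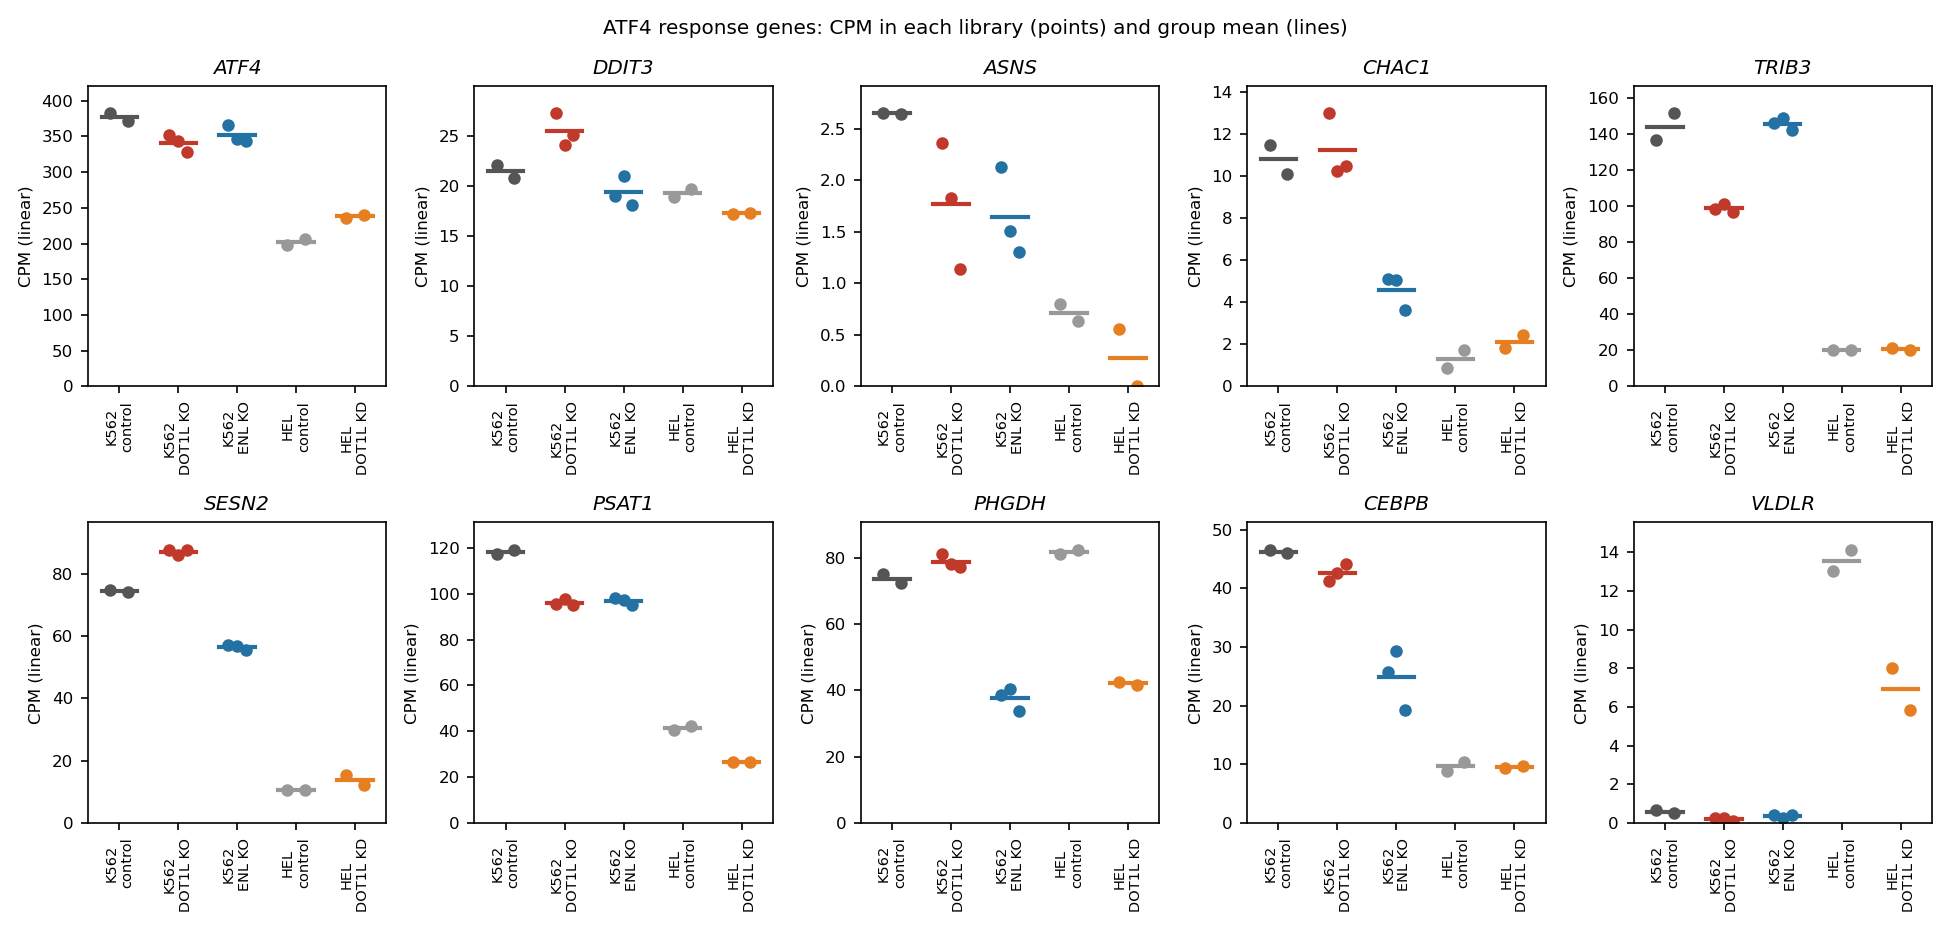
Level of each of the 10 genes in CPM (linear axis from 0; each panel has its own scale) in every library (points), with the group mean (line). PSAT1 was lower in every depleted library than in the controls of its line, CHAC1, PHGDH and CEBPB were low in the ENL KO, and TRIB3 in the DOT1L KO.

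In K562, the DOT1L KO was first compared with its control, the question being which of these genes depend on DOT1L. Of the 10 genes, 6 passed the test, 2 higher and 4 lower, where 51.1% of all 14301 genes tested did (26.9% higher, 24.2% lower), so the share is near the background. SESN2 and DDIT3 rose, and VLDLR, TRIB3, PSAT1 and ATF4 fell. The median log2 fold change of the 10 was -0.13, beside 0.01 over all genes tested. Libraries of the groups did not overlap for 9 of the 10, as for 68.1% of all genes. Without either control library, or without DOT1L KO library 3, only 3 were left: SESN2 higher, and TRIB3 and PSAT1 lower. In the ENL KO, which asks the same of ENL, 5 of the 10 passed, all 5 lower, where 41.0% of all genes did (18.8% higher, 22.2% lower). CHAC1, PHGDH, CEBPB, SESN2 and PSAT1 fell, and the median of the 10 was -0.53 beside 0.00. The groups did not overlap for 8 of the 10, as for 59.6% of all genes. The ENL KO labels name no sequencing lane whereas those of the control and DOT1L KO do, so a batch and loss of ENL cannot be told apart. Both comparisons use the same 2 control libraries. CPM values and the test (edgeR's quasi-likelihood test, Benjamini-Hochberg adjustment over all genes tested, threshold 0.05) are the same throughout, and values after a fold change are standard errors (SE).

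In HEL, the DOT1L KD changed 5 of the 9 genes that could be tested, 2 higher and 3 lower, where 55.0% of all 12635 genes passed (27.0% higher, 28.0% lower). ATF4 and SESN2 rose, PHGDH, VLDLR and PSAT1 fell, and the median of the 9 was -0.02 beside 0.01. The groups did not overlap for 7 of these 9, as for 75.9% of all genes. ASNS had too few reads for the test. PSAT1 was the 1 gene of the 10 that fell in all 3 comparisons with a control, and none of the 10 rose in all 3. Of the 11644 genes tested in all 3, 6.23% passed in 1 direction throughout (3.12% lower, 3.11% higher).

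**Figure D2:**
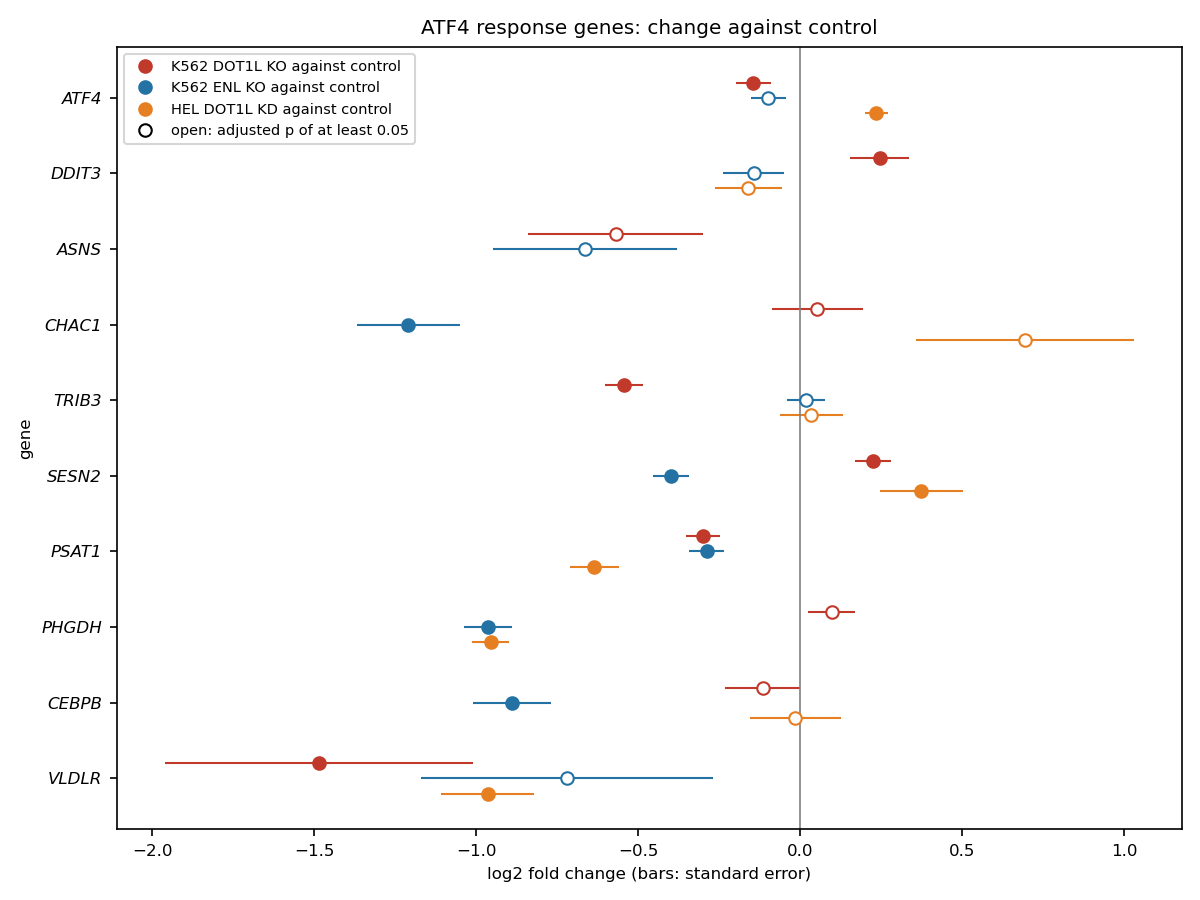
Log2 fold change (x axis) of each gene in the 3 comparisons with a control, with bars for 1 standard error. Filled points have an adjusted p under 0.05; PSAT1 is filled and left of 0 in all 3, PHGDH in the ENL KO and HEL KD only, and ASNS has no HEL point because it was not tested there.

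ATF4 mRNA itself moved little and not in the same direction in the cell lines. It lies at chr22:39520559-39522686 (GRCh38, plus strand, as for all gene positions here from the tables). It stood at 382 and 372 CPM in K562 controls, 352, 344 and 328 CPM in the DOT1L KO, and 366, 347 and 344 CPM in the ENL KO. All 6 knockout libraries were below both controls. In the DOT1L KO the mean was 0.905 of control (log2 fold change -0.14, SE 0.05, edgeR adjusted p = 0.0362). This call was lost without control library 1 (adjusted p = 0.180) or 2 (0.0829), without DOT1L KO library 2 (0.0688) or 3 (0.118), and with library scaling by upper quartile (adjusted p = 0.0750) or by totals (0.0997). The ENL KO gave -0.10 (SE 0.05, adjusted p = 0.161). In HEL, ATF4 was at 198 and 207 CPM in controls and at 236 and 240 CPM in the KD. Both KD libraries were above both controls, a rise to 1.18 times control (log2 fold change 0.23, SE 0.04, adjusted p = 2.06e-07). The response in HEL minus that in K562 was 0.40 (SE 0.07, adjusted p = 0.000135).

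The 5 genes whose pattern over the 12 libraries lay closest to that of ATF4 were, by the root mean square difference of log2 CPM centred within each line, TCOF1 (0.035), BIRC5, PPP6R1, LONP1 and SRRM1 (0.040), among 8981 candidates with a median difference of 0.19.

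DDIT3 (CHOP; chr12:57516588-57520517, minus strand), a bZIP factor that promotes cell death in prolonged stress, was at 22.0 and 20.8 CPM in K562 controls. It was at 27.2, 24.0 and 25.0 CPM in the DOT1L KO and at 19.0, 21.0 and 18.1 CPM in the ENL KO. The 3 DOT1L KO libraries were above all the others, while ENL KO and control libraries overlapped. With DOT1L lost, DDIT3 rose to 1.19 times control (log2 fold change 0.24, SE 0.09, adjusted p = 0.0388). The call was lost without control library 1 (adjusted p = 0.0878) or 2 (0.213), without DOT1L KO library 1 (0.120) or 3 (0.0628), and with no filter on low counts (0.0738). In the ENL KO it gave -0.14 (SE 0.09, adjusted p = 0.249). HEL controls had 18.9 and 19.7 CPM and KD libraries 17.2 and 17.3 CPM, lower in both but not past the threshold (-0.16, SE 0.10, adjusted p = 0.186). DDIT3 shares 65 of its 1178 exonic bases with MARS on the opposite strand.

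CEBPB (chr20:50190583-50192691, plus strand) encodes C/EBPbeta, a dimer partner of ATF4. It was at 46.6 and 46.0 CPM in K562 controls, 41.3, 42.6 and 44.2 CPM in the DOT1L KO, and 25.7, 29.3 and 19.3 CPM in the ENL KO. The ENL KO libraries were the lowest and the most scattered, and did not overlap with the others. CEBPB fell to 0.536 of control in the ENL KO (log2 fold change -0.89, SE 0.12, adjusted p = 5.32e-05). The DOT1L KO gave -0.12 (SE 0.12, adjusted p = 0.434). HEL had 8.95 and 10.3 CPM in controls and 9.38 and 9.68 CPM in the KD, which overlapped (-0.02, SE 0.14, adjusted p = 0.933). CEBPB shares 561 of its 2109 exonic bases (26.6%) with CEBPB-AS1 on the opposite strand, which had 22 to 67 counts a library in K562 and 1 to 6 in HEL.

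The 3 stress regulators each followed a pattern of their own. CHAC1 (chr15:40953471-40956519, plus strand), an enzyme that degrades glutathione, was at 11.5 and 10.1 CPM in K562 controls, 13.0, 10.2 and 10.5 CPM in the DOT1L KO, and 5.12, 5.06 and 3.65 CPM in the ENL KO. The DOT1L KO overlapped with the controls, and all ENL KO libraries were below both. CHAC1 fell to 0.427 of control in the ENL KO (log2 fold change -1.21, SE 0.16, adjusted p = 3.87e-05), and the DOT1L KO gave 0.05 (SE 0.14, adjusted p = 0.780). In HEL it was scarce, at 0.879 and 1.75 CPM in controls and 1.83 and 2.44 CPM in the KD (0.69, SE 0.34, adjusted p = 0.0747). This passed the threshold with upper-quartile scaling (0.77, adjusted p = 0.0470) and without HEL control library 2 (1.27, adjusted p = 0.0239).

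TRIB3 (chr20:380629-397559, plus strand), a pseudokinase that is induced by ATF4 and DDIT3 and dampens the response, was at 136 and 151 CPM in K562 controls, 98.2, 101 and 96.5 CPM in the DOT1L KO, and 146, 149 and 142 CPM in the ENL KO. Only the DOT1L KO libraries lay below the others. TRIB3 fell to 0.686 of control there (log2 fold change -0.54, SE 0.06, adjusted p = 4.72e-06), while the ENL KO gave 0.02 (SE 0.06, adjusted p = 0.846). In HEL it had 20.1 and 20.0 CPM in controls and 21.1 and 20.0 CPM in the KD, with the groups overlapping (0.03, SE 0.10, adjusted p = 0.788). The HEL response minus the K562 fall was 0.59 (SE 0.11, adjusted p = 0.000156).

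SESN2 (chr1:28259452-28282491, plus strand), sestrin 2, a leucine sensor that restrains mTORC1, was at 74.9 and 74.0 CPM in K562 controls, 87.4, 85.9 and 87.7 CPM in the DOT1L KO, and 57.0, 56.8 and 55.6 CPM in the ENL KO. The 3 groups did not overlap, with the DOT1L KO highest and the ENL KO lowest. With DOT1L lost, SESN2 rose to 1.17 times control (log2 fold change 0.22, SE 0.06, adjusted p = 0.00398) and fell to 0.759 of control in the ENL KO (-0.40, SE 0.06, adjusted p = 7.61e-05). It was the 1 gene of the 10 that passed in opposite directions in the knockouts. In HEL it was at 10.6 and 10.7 CPM in controls and at 15.4 and 12.2 CPM in the KD. Both KD libraries were higher (0.37, SE 0.13, adjusted p = 0.0121), but the call was lost with DESeq2 (adjusted p = 0.159), with no filter on low counts (0.0865) and without KD library 1, where the value was 0.19 (adjusted p = 0.344).

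Of the serine synthesis enzymes, PSAT1 fell in all 3 comparisons with a control, and PHGDH in the ENL KO and the HEL KD. PHGDH (chr1:119711796-119744226, plus strand) catalyses the first step from glycolysis to serine. It was at 75.1 and 72.3 CPM in K562 controls, 81.2, 78.1 and 77.2 CPM in the DOT1L KO, and 38.8, 40.5 and 33.9 CPM in the ENL KO. In HEL it was at 81.1 and 82.5 CPM in controls and at 42.7 and 41.6 CPM in the KD. The ENL KO and HEL KD libraries were far below their controls, and the DOT1L KO libraries of K562 lay slightly above theirs. PHGDH fell to 0.512 of control in the ENL KO (log2 fold change -0.96, SE 0.07, adjusted p = 2.70e-07) and to 0.516 in the HEL KD (-0.95, SE 0.06, adjusted p = 2.17e-20). The DOT1L KO of K562 gave 0.10 (SE 0.07, adjusted p = 0.286). The HEL response minus the K562 response to DOT1L depletion was -1.03 (SE 0.09, adjusted p = 5.05e-09).

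PSAT1 (chr9:78297075-78330093, plus strand), the transaminase of the second step, was at 117 and 119 CPM in K562 controls, 95.6, 97.5 and 95.0 CPM in the DOT1L KO, and 98.2, 97.0 and 95.1 CPM in the ENL KO. All 6 knockout libraries were below both controls and overlapped with each other. With DOT1L lost, PSAT1 fell to 0.812 of control (log2 fold change -0.30, SE 0.05, adjusted p = 0.000320) and to 0.818 in the ENL KO (-0.29, SE 0.05, adjusted p = 0.000642). In HEL, controls had 40.5 and 42.3 CPM and KD libraries 26.7 and 26.6 CPM, a fall to 0.644 of control (-0.64, SE 0.08, adjusted p = 5.41e-10). The fall was larger in HEL than in K562 by -0.32 (SE 0.09, adjusted p = 0.00803). PSPH, the phosphatase of the last step, was looked up after the values of the first steps had been seen. It fell in the ENL KO (-0.35, SE 0.08, adjusted p = 0.00255), and gave 0.06 (SE 0.08, adjusted p = 0.506) in the DOT1L KO and 0.11 (SE 0.13, adjusted p = 0.502) in HEL.

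ASNS (chr7:97852117-97928562, minus strand), asparagine synthetase and the classic target of this response, was counted at 2.65 and 2.65 CPM in K562 controls, 2.36, 1.82 and 1.14 CPM in the DOT1L KO, and 2.13, 1.51 and 1.30 CPM in the ENL KO. All 6 knockout libraries were below both controls, but with log2 fold changes of -0.57 (SE 0.27, adjusted p = 0.0951) and -0.66 (SE 0.28, adjusted p = 0.0772) neither passed. The DOT1L KO passed without DOT1L KO library 1 (-0.80, adjusted p = 0.0291) and the ENL KO without ENL KO library 1 (-0.90, adjusted p = 0.0302), and both passed with no filter on low counts. HEL had 0.799 and 0.635 CPM in controls and 0.557 and 0 CPM in the KD, too low to test. Of the 3007 exonic bases of ASNS, 2368 (78.7%) are also listed, on the same strand, for CZ1P-ASNS, a readthrough transcript with 0 to 6 counts a library, which leaves 639 bases of its own. How fragments in shared exons were assigned is not given in the sources used here, so the ASNS level is uncertain. By the same measure ASNS, with its low counts, lay nearest to EPHX1 (0.48), TNFAIP3, ABCB9, ARHGEF40 and GSTP1 (0.50), among the same candidates with a median difference of 0.71.

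**Figure D3:**
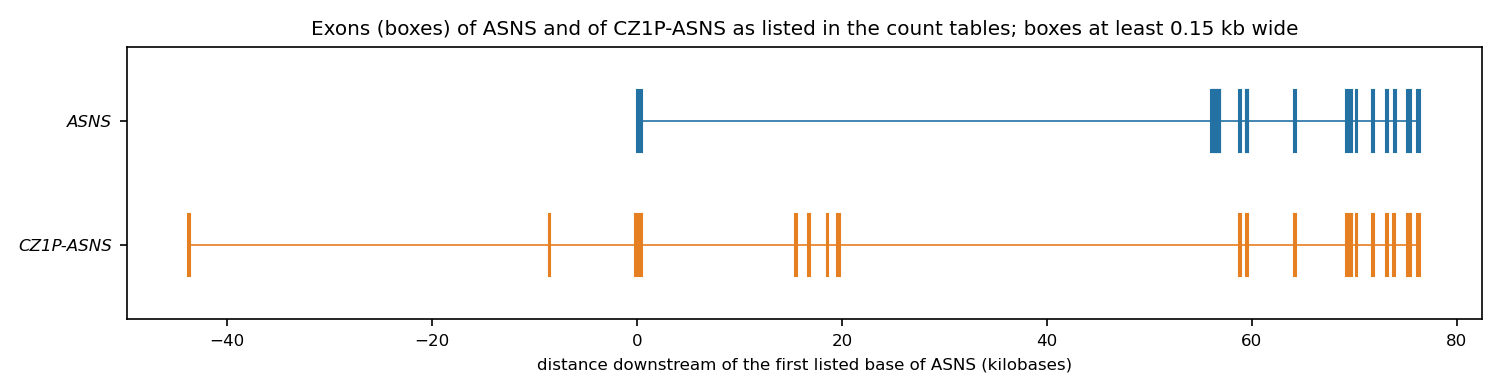
Exons (boxes) listed for ASNS and for the readthrough gene CZ1P-ASNS, along the distance in kilobases downstream of the first listed base of ASNS. Narrow boxes were widened to be visible. Most ASNS exons coincide with exons of CZ1P-ASNS, as the 78.7% of shared bases reflects.

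VLDLR (chr9:2621774-2656103, plus strand), a receptor for triglyceride-rich lipoproteins that is induced in endoplasmic reticulum stress, was close to the floor in K562, where its counts were 14 and 11 for the controls, 6, 7 and 2 for DOT1L KO libraries, and 9, 5 and 6 for ENL KO libraries. As levels, the controls had 0.651 and 0.520 CPM, DOT1L KO libraries 0.273, 0.236 and 0.0947 CPM, and ENL KO libraries 0.435, 0.243 and 0.391 CPM. The knockouts were below the controls in every library. The fall in the DOT1L KO was -1.48 (SE 0.48, adjusted p = 0.0185), a call lost with DESeq2 (adjusted p = 0.0739), without control library 1 (0.131) or 2 (0.0502) and without DOT1L KO library 3 (0.0549). VLDLR shares 172 of its 5273 exonic bases with VLDLR-AS1, which had 0 or 1 count a library in K562 and 2 to 6 in HEL. The ENL KO gave -0.72 (SE 0.45, adjusted p = 0.227). HEL had 13.0 and 14.1 CPM in controls and 8.03 and 5.86 CPM in the KD, and VLDLR fell to 0.512 of control (-0.96, SE 0.14, adjusted p = 1.12e-07).

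The knockouts were then compared with each other, which asks whether loss of DOT1L and of ENL left these genes at the same level. Of the 10 genes, 6 passed, where 60.2% of all genes did (31.8% higher, 28.3% lower in the DOT1L KO). CHAC1 was 2.44 times as high in the DOT1L KO as in the ENL KO (log2 difference 1.26, SE 0.14, adjusted p = 4.41e-06) and PHGDH 2.09 times (1.06, SE 0.07, adjusted p = 1.26e-08). CEBPB (0.77, SE 0.11), SESN2 (0.62, SE 0.05) and DDIT3 (0.39, SE 0.08) were also higher in the DOT1L KO. TRIB3 alone of the 6 was lower (-0.56, SE 0.05, adjusted p = 8.38e-07). None of these 6 pairs of groups overlapped, as 63.3% of all genes did not. For the other 4 the differences were -0.05 (SE 0.05) for ATF4, -0.01 (SE 0.05) for PSAT1, 0.09 (SE 0.27) for ASNS and -0.76 (SE 0.49) for VLDLR, which does not show that they were alike. The median of the 10 was 0.24, beside 0.00 over all genes.

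Between the untreated lines, 9 of the 10 genes differed, where 85.6% of all 15367 genes did (41.3% higher, 44.2% lower in HEL). Of these, 7 were lower in HEL: CHAC1 by -2.96 (SE 0.25), TRIB3 by -2.77 (SE 0.08), SESN2 by -2.73 (SE 0.09), CEBPB by -2.19 (SE 0.10), ASNS by -1.81 (SE 0.45), PSAT1 by -1.44 (SE 0.06) and ATF4 by -0.83 (SE 0.05), all log2 differences with adjusted p of 0.000922 or less. VLDLR was 23.2 times as high in HEL (4.59, SE 0.25, adjusted p = 1.43e-13) and PHGDH 1.11 times (0.22, SE 0.06, adjusted p = 0.00261). DDIT3 gave -0.08 (SE 0.10, adjusted p = 0.438). The median of the 10 was -1.63 beside -0.09 over all genes, and the groups did not overlap for any of the 10, as for 92.7% of all genes. The line cannot be told apart here from the culture medium or from counting reads in HEL and fragments in K562. The ASNS difference is uncertain, because most of its exonic bases are shared with CZ1P-ASNS.

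The response to DOT1L depletion differed between the lines in 5 of the 10 genes, where 38.9% of all genes differed (19.8% higher, 19.1% lower). The HEL response was above the K562 response for TRIB3 and ATF4 and below it for PHGDH, DDIT3 and PSAT1. The value for DDIT3 was -0.39 (SE 0.14, adjusted p = 0.0310). The DDIT3 call was lost with DESeq2 (adjusted p = 0.0877), without DOT1L KO library 1, without K562 control library 2 and without any of the 4 HEL libraries, where adjusted p ran from 0.0541 to 0.109. For CHAC1, VLDLR, SESN2, CEBPB and ASNS the difference did not pass. Line goes together with knockdown against knockout in this comparison.

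In all, 11 further lists with 125 genes, the markers above among them, place the 10 genes in their pathway. The first, upstream of ATF4, holds 11 genes of eIF2alpha phosphorylation. In the DOT1L KO 4 rose and 2 fell (median 0.09), in the ENL KO 4 rose and 2 fell (0.11), and in HEL 1 rose and 8 fell (-0.21), beside 0.01, 0.00 and 0.01 over all genes. EIF2AK1, the haem-regulated kinase HRI, rose from 457 ± 35.4 (SD, n = 2) to 674 ± 19.1 (n = 3) CPM in the DOT1L KO (log2 fold change 0.56, SE 0.06, adjusted p = 3.48e-06). IMPACT, an inhibitor of GCN2, rose there (0.53, SE 0.11) and fell in HEL (-0.73, SE 0.06). EIF2AK3, the endoplasmic reticulum kinase PERK, rose in the DOT1L KO (0.34, SE 0.10) and the ENL KO (0.54, SE 0.10) and fell in HEL (-0.44, SE 0.07). EIF2AK4, the kinase GCN2 that senses uncharged tRNA, fell in all 3 comparisons, by -0.35 (SE 0.07) in the DOT1L KO, -0.73 (SE 0.07) in the ENL KO and -0.15 (SE 0.04) in HEL. The HEL value did not pass with upper-quartile scaling (-0.08, adjusted p = 0.107).

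Among 10 bZIP partners and related factors, 2 rose and 5 fell in the DOT1L KO (median -0.29), and 8 fell and none rose in the ENL KO (-0.44). In HEL 2 of the 8 tested rose and 2 fell (-0.10). The shares of all genes that fell were 24.2% in the DOT1L KO, 22.2% in the ENL KO and 28.0% in HEL. Those that rose were 26.9%, 18.8% and 27.0%. ATF3, a stress-induced repressor, fell from 14.7 ± 2.24 (n = 2) CPM to 10.8 ± 0.916 (n = 3) CPM in the DOT1L KO (-0.44, SE 0.13, adjusted p = 0.0102) and to 7.35 ± 0.894 (n = 3) CPM in the ENL KO (-0.99, SE 0.13, adjusted p = 4.95e-05). In HEL it fell from 5.18 ± 0.136 to 3.42 ± 0.339 (n = 2 each) CPM (-0.60, SE 0.21, adjusted p = 0.0131). ATF5, a close relative of ATF4, also fell in all 3, by -0.40 (SE 0.10), -0.37 (SE 0.10) and -0.65 (SE 0.15). Without K562 control library 1, ATF3 in the DOT1L KO (-0.28, adjusted p = 0.175) and ATF5 in both knockouts (-0.33, adjusted p = 0.0586, and -0.29, adjusted p = 0.119) did not pass. In HEL, ATF3 did not pass without control library 1 (adjusted p = 0.0605), without KD library 1 (0.113) or with DESeq2 (0.155). CEBPD fell in both knockouts (-1.41, SE 0.12, and -0.77, SE 0.12), and JUN rose in the DOT1L KO (0.36, SE 0.07) and in HEL (0.86, SE 0.11).

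Of 12 other enzymes of serine, glycine, proline and folate metabolism, 1 rose and 6 fell in the DOT1L KO (median -0.15), none rose and 6 fell in the ENL KO (-0.16), and in HEL 2 of the 11 tested rose and 6 fell (-0.16). GPT2, mitochondrial alanine transaminase, fell in all 3, by -1.05 (SE 0.09), -0.77 (SE 0.09) and -0.35 (SE 0.13), the last lost without HEL control library 2 (-0.27, adjusted p = 0.149), without KD library 2 (-0.25, adjusted p = 0.190) and with DESeq2 (adjusted p = 0.178). ALDH18A1, the first enzyme of proline synthesis, fell in the DOT1L KO (-0.63, SE 0.06). ALDH1L2, a mitochondrial folate enzyme, rose there (0.59, SE 0.09) and fell in the ENL KO (-0.84, SE 0.10). In HEL, ALDH1L2 fell from a low level of 5.73 to 2.01 CPM (-1.51, SE 0.23). CTH, which makes cysteine from cystathionine, fell in the ENL KO (-1.01, SE 0.12) and in HEL (-0.46, SE 0.15), there not without control library 1 (-0.33, adjusted p = 0.134). MTHFD2, the mitochondrial folate dehydrogenase, fell in HEL (-0.41, SE 0.03).

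Of 15 other stress-induced targets, 14 were tested in K562. In the DOT1L KO 2 rose and 9 fell (median -0.35), in the ENL KO none rose and 9 fell (-0.45), and in HEL 4 of the 11 tested rose and 2 fell (0.02). VEGFA, the vascular growth factor, fell in the DOT1L KO from 184 ± 17.5 (n = 2) to 70.3 ± 4.24 (n = 3) CPM (-1.39, SE 0.07), and DDIT4, an mTORC1 inhibitor, from 297 ± 36.1 to 133 ± 22.7 CPM (-1.16, SE 0.14). Both also fell in the ENL KO, VEGFA by -0.64 (SE 0.07) and DDIT4 by -1.28 (SE 0.14). In HEL, DDIT4 rose (0.15, SE 0.05) and VEGFA gave 0.01 (SE 0.04). JDP2, a bZIP repressor, rose in the DOT1L KO from 4.20 ± 0.614 to 14.5 ± 1.46 CPM (1.79, SE 0.16). TRIB2, a relative of TRIB3, rose there too (0.61, SE 0.05) and fell in the ENL KO (-0.50, SE 0.05). In the ENL KO the secreted protein gene STC2 fell by -1.76 (SE 0.14) and TRIB1, another relative of TRIB3, by -1.30 (SE 0.09). Both fell in the DOT1L KO as well, by -0.71 (SE 0.13) for STC2 and -0.71 (SE 0.09) for TRIB1. JDP2, named for the ENL KO after its values were seen because its level is low, fell there to 0.497 ± 0.209 (n = 3) CPM (-3.02, SE 0.26). EIF4EBP1, the translation repressor 4E-BP1, fell in all 3, by -0.24 (SE 0.07), -0.31 (SE 0.07) and -0.50 (SE 0.04), but in the DOT1L KO not without K562 control library 1 (adjusted p = 0.0588) or 2 (0.0504). SESN3, a relative of SESN2, rose in HEL (0.53, SE 0.04) and fell in the ENL KO (-0.82, SE 0.10).

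**Figure D4:**
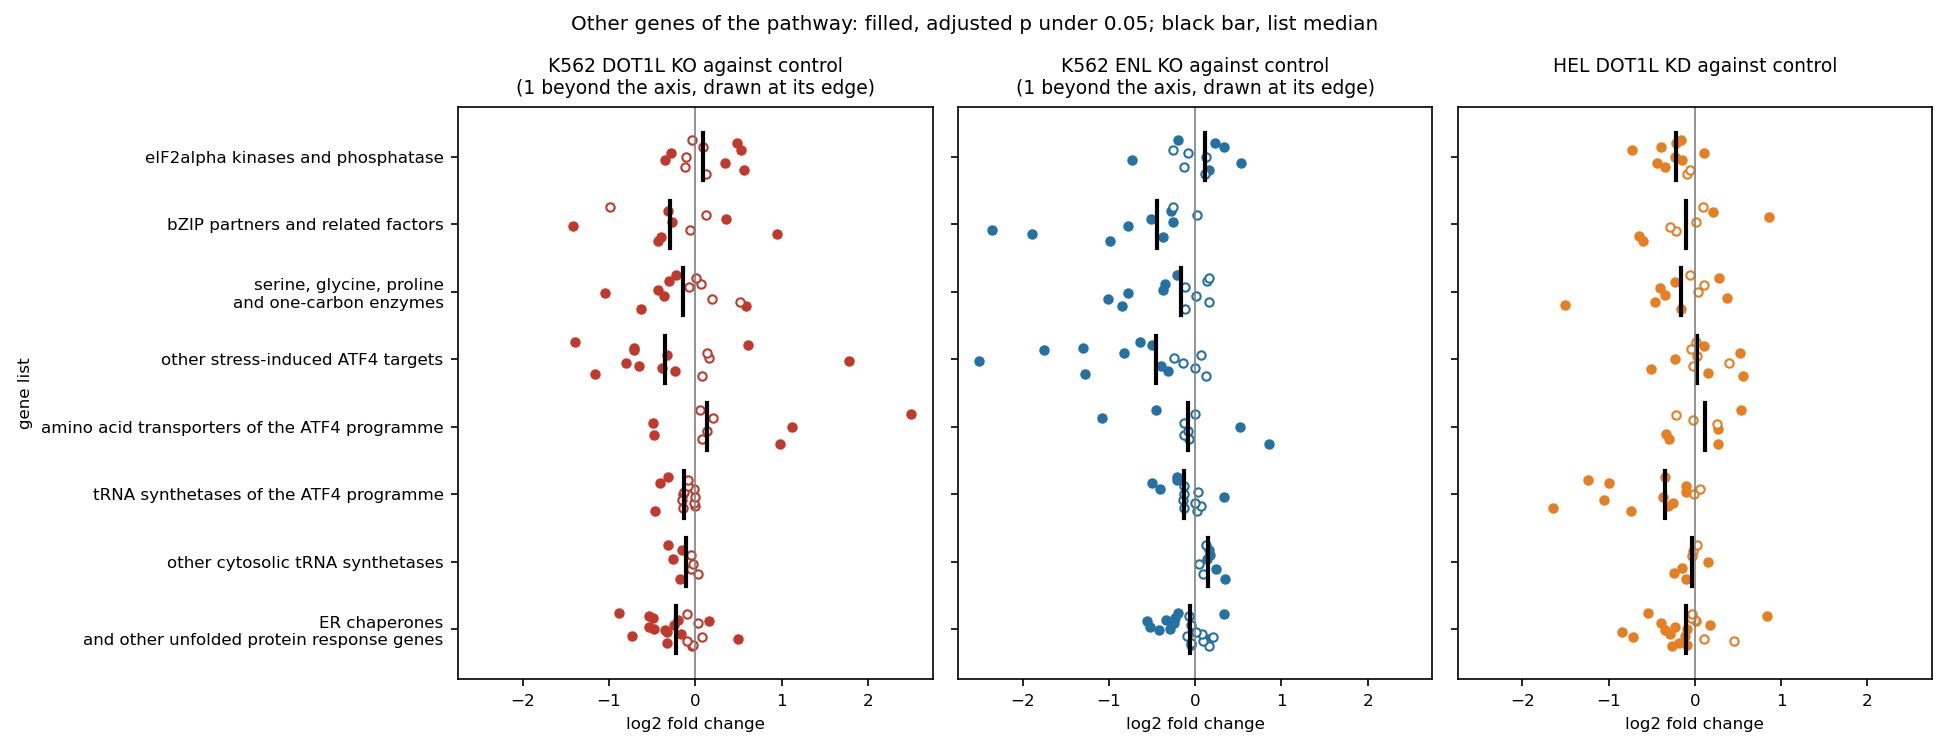
Log2 fold change (x axis) of each tested gene of 8 pathway lists (rows) in the 3 comparisons with a control; filled points have an adjusted p under 0.05 and black bars mark list medians. The list of tRNA synthetases of the ATF4 programme has its median furthest from 0 in HEL, at -0.34. SLC7A3 in the DOT1L KO and JDP2 in the ENL KO (-3.02) lie beyond the axis and are drawn at its edge; SLC7A3 had no count in K562 controls, so its fitted fold change has no fixed size.

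Of 9 amino acid transporters, 3 rose and 2 fell in the DOT1L KO (median 0.14) and 2 rose and 2 fell in the ENL KO (-0.08). In HEL 3 of the 8 tested rose and 2 fell (0.12). The shares of all genes that rose were 26.9% in the DOT1L KO, 18.8% in the ENL KO and 27.0% in HEL. Those that fell were 24.2%, 22.2% and 28.0%. The K562 medians were the same with SLC7A3, which had no count in controls, set at its bound. SLC1A4, a carrier of alanine, serine and cysteine, rose in all 3, from 37.2 ± 1.71 (n = 2) to 73.3 ± 1.29 (n = 3) CPM in the DOT1L KO (0.98, SE 0.07), to 67.2 ± 2.61 (n = 3) CPM in the ENL KO (0.85, SE 0.07), and from 26.6 ± 0.837 to 32.2 ± 1.19 (n = 2 each) CPM in HEL (0.27, SE 0.08, adjusted p = 0.00392). The rise in HEL did not pass without KD library 1 (0.23, adjusted p = 0.0523) or with DESeq2 (adjusted p = 0.0958). Its direction was opposite to that of PSAT1. SLC6A9, a glycine carrier, rose in both knockouts (1.12, SE 0.07, and 0.52, SE 0.08). SLC7A11, the cystine carrier, fell in the ENL KO from 35.1 ± 1.70 to 16.6 ± 2.49 CPM (-1.08, SE 0.12). SLC7A5, the large neutral amino acid carrier, fell in the ENL KO (-0.45, SE 0.05) and rose in HEL (0.54, SE 0.04).

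The 13 genes of tRNA charging counted with the ATF4 programme, 12 cytosolic synthetases and the tRNA exporter XPOT, differed by line. In HEL 11 fell and none rose (median -0.34), where 28.0% of all genes fell. In the DOT1L KO 4 fell and none rose (-0.13), where 24.2% of all genes fell. In the ENL KO 4 fell and 1 rose (-0.13), where 22.2% of all genes fell. The difference of the DOT1L response between the lines passed for 8 of the 13, all with the lower value in HEL. It passed for 38.9% of all genes, and for 19.1% with the lower value in HEL. XPOT fell from 320 ± 5.59 to 135 ± 2.74 (n = 2 each) CPM in HEL (-1.24, SE 0.04, adjusted p = 1.82e-33) and IARS from 249 ± 10.4 to 120 ± 1.05 CPM (-1.05, SE 0.04, adjusted p = 7.23e-29). WARS fell in all 3, by -0.41 (SE 0.05) and -0.50 (SE 0.05) in the knockouts and -1.00 (SE 0.06) in HEL, and YARS by -0.32 (SE 0.05), -0.21 (SE 0.05) and -0.34 (SE 0.03). The ENL KO value of YARS did not pass without K562 control library 1 (adjusted p = 0.0548). AARS fell in the DOT1L KO from 427 ± 0.992 (n = 2) to 309 ± 8.41 (n = 3) CPM (-0.47, SE 0.05). It fell in HEL too (-0.74, SE 0.03), and the ENL KO gave 0.02 (SE 0.05).

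The 8 other cytosolic synthetases served as a set outside the programme. None rose and 4 fell in the DOT1L KO (median -0.10), 5 rose and none fell in the ENL KO (0.15), and in HEL 1 of the 7 tested rose and 3 fell (-0.04). DARS rose in the ENL KO (0.35, SE 0.06). Of the 8, 1 differed in its DOT1L response between the lines. TGATGCAA was found in the windows of 6 of 11 programme genes matched (AARS, CARS, IARS, MARS, NARS and TARS) and of 0 of 6 others. In HEL the 6 genes with these letters ranged from -1.64 for CARS to -0.0038 for MARS (adjusted p = 0.943). The CARS value rests on 32 counts in the controls and 10 in the KD, and its exons are listed on 2 chromosomes. The searched programme genes without these letters ranged from -1.24 for XPOT and -1.00 for WARS to 0.06 for SARS.

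**Figure D5:**
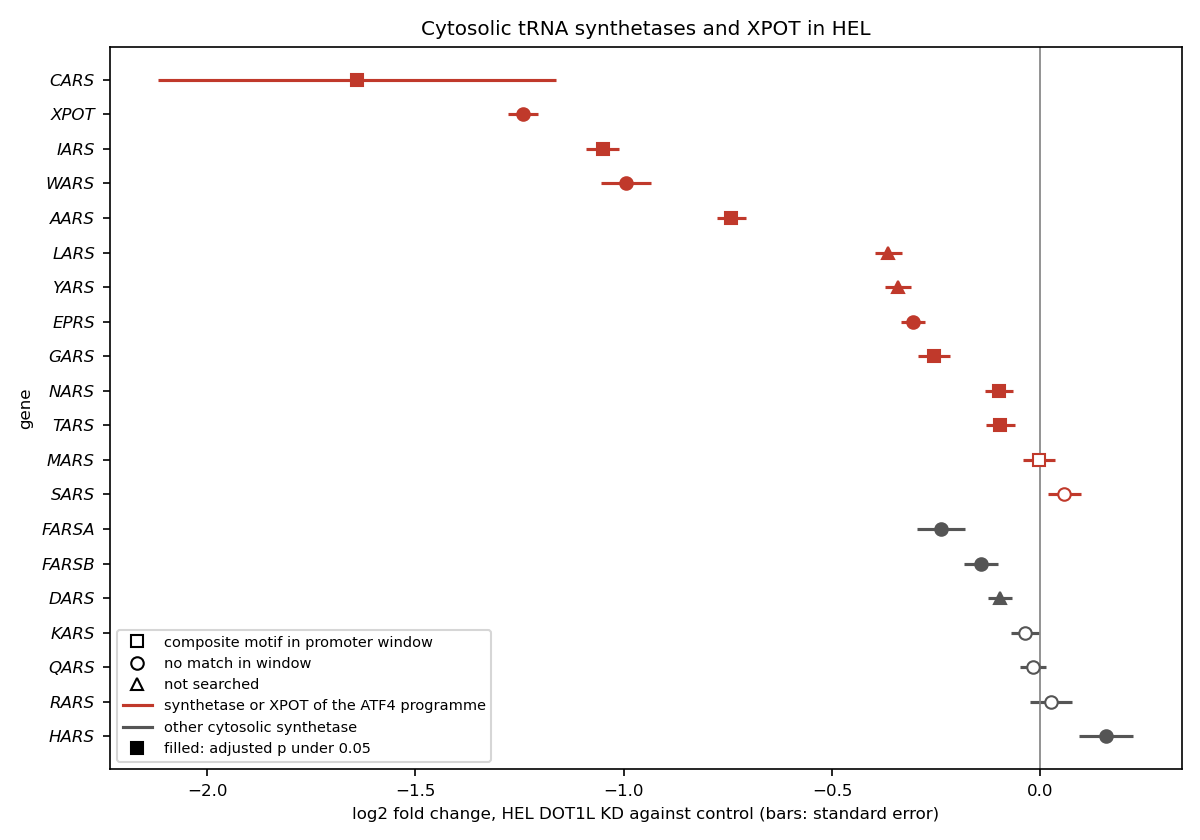
Log2 fold change in the HEL DOT1L KD (x axis; bars are 1 standard error) of XPOT and the cytosolic tRNA synthetases, by list and by presence of TGATGNAA in the promoter window. GARS is marked as holding it, but does not hold TGATGCAA, by which the text groups the genes. XPOT, IARS, WARS and AARS are the lowest of the well-counted genes, and the other synthetases lie between -0.24 and 0.16.

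ATF4 shares targets and triggers with the unfolded protein response of the endoplasmic reticulum, whose chaperones carry the endoplasmic reticulum stress response element, a CCAAT box and a CCACG box held 9 bases apart. That element was found in 25 of 27305 genes (0.09%), among them 7 of 19 matched of the 20 listed, and in none of the 10 genes described here. Of the 20, 2 rose and 12 fell in the DOT1L KO (median -0.23), 2 rose and 8 fell in the ENL KO (-0.06), and 2 rose and 12 fell in HEL (-0.10). HSPA5, the chaperone BiP, fell in all 3, from 658 ± 6.14 (n = 2) CPM to 455 ± 18.2 (n = 3) CPM in the DOT1L KO and 457 ± 6.29 (n = 3) CPM in the ENL KO, and from 292 ± 8.87 to 249 ± 1.67 (n = 2 each) CPM in HEL. The log2 fold changes were -0.53 (SE 0.05), -0.53 (SE 0.05) and -0.23 (SE 0.03). XBP1, the factor spliced by IRE1, fell by -0.89 (SE 0.06), -0.20 (SE 0.06) and -0.54 (SE 0.05), HERPUD1 by -0.35 (SE 0.08), -0.42 (SE 0.08) and -0.34 (SE 0.09), and the chaperone HSP90B1 by -0.48 (SE 0.06), -0.30 (SE 0.06) and -0.09 (SE 0.03). In HEL, HSP90B1 did not pass without control library 2 (adjusted p = 0.0602), without KD library 1 (0.0699) or 2 (0.0806), or with upper-quartile scaling (-0.01), and HERPUD1 not without control library 1 (0.0675) or KD library 2 (0.0610). The ENL KO value of XBP1 did not pass without K562 control library 2 (-0.11, adjusted p = 0.308) or ENL KO library 1 (0.0679).

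Other receptors of the family of VLDLR include LRP2, an endocytic receptor, and LRP5, a co-receptor of Wnt signalling. In HEL, where VLDLR fell, LRP2 rose from 3.74 ± 0.659 to 10.7 ± 0.795 (n = 2 each) CPM (1.51, SE 0.17). The rise was not limited to HEL. In the DOT1L KO of K562, LRP2 rose from 0.657 ± 0.00790 (n = 2) to 10.2 ± 1.09 (n = 3) CPM (3.96, SE 0.20). LRP5 fell in all 3, by -0.77 (SE 0.07), -0.36 (SE 0.07) and -0.16 (SE 0.05). The HEL value did not pass without control library 2 (adjusted p = 0.0842), without KD library 1 (0.114) or with DESeq2 (0.115).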

How the data were processed

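Polyadenylated RNA of K562 and HEL was sequenced as strand-marked libraries, per the labels' protocols. The authors deposited whole-number counts per gene, as fragments in K562 and reads in HEL, per the file headers. The submitters' processing notes name fastp 0.13.1, Bowtie2 2.3.4.1, HISAT2 2.1.0, deepTools, featureCounts 1.6.1 and the builds hg38 and hg19, without roles. Strand use and the treatment of shared exons and multiply placed reads in counting are not given in the sources used here.

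Genes were filtered with filterByExpr (minimum count 10, minimum total 15), scaled with TMM and tested with glmQLFit and glmQLFTest of edgeR 4.0.16 in R 4.3.3, K562 and HEL apart, with Benjamini-Hochberg adjustment over all genes tested and a threshold of 0.05. Line comparisons came from a joint fit of 9 libraries. The SE is the log2 fold change divided by the square root of F. The method was tested on simulated data. Limma 3.58.1 was loaded with edgeR, and DESeq2 1.42.0 was an alternative, as were other scalings, filters, a fold threshold, a replicate block and leaving out each library.

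The 10 genes and the lists were chosen with earlier results of these data known. Of each list, at most the 2 largest increases and 2 largest decreases of a comparison with a control were eligible for naming (past the threshold, mean of at least 5 CPM, no overlap of groups), plus genes past it in 1 direction in all 3. For some named genes, values in other comparisons are given as well. Some of the listed genes, and list summaries that rest on them, are not reported here.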

Additional observations from a re-analysis of the deposited data

Results flagged for a closer look

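The response to DOT1L depletion differed between HEL and K562 in 5 of the 10 genes by the interaction test of edgeR. The HEL response minus the K562 response, in log2 units, was 0.40 for ATF4, -0.39 for DDIT3, 0.59 for TRIB3, -0.32 for PSAT1 and -1.03 for PHGDH. PSAT1 fell in both lines, and ATF4 passed the test in opposite directions. Cell line, culture medium, knockdown against knockout and reads against fragments cannot be told apart in these values. No group had the 4 or more libraries that a search for single outlying libraries needs.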

How the results depend on the processing

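Over the 10 genes and their comparisons, 776 results kept their direction and their side of the threshold under an alternative setting, 49 lost their call, 10 gained one and 19 changed sign, all 19 being values without a call. With a required log2 fold change of at least 1 in size, the genes called among the 10 were 1 in the DOT1L KO, 1 in the ENL KO, 2 between the knockouts, 0 in HEL (5 without this requirement by edgeR, 4 by DESeq2) and 1 for the difference between lines, and among all genes 2265, 1573, 2744, 738 and 1950. DESeq2 called 4561 genes in HEL where edgeR called 6951. Leaving out 1 library at a time gave 3 to 6 of the 10 genes in the DOT1L KO, with 3 without control library 1, control library 2 or DOT1L KO library 3. The sign changes were these, as log2 values. TRIB3 in the ENL KO gave -0.0079 with upper-quartile scaling, -0.0066 with the identical control columns kept as separate libraries, and -0.055 to 0.096 over the fits that left out 1 library. PSAT1 between the knockouts gave 0.030 with upper-quartile scaling, 0.042 with totals and 0.0031 with a filter at 1 CPM, and ATF4 gave 0.0071 with totals. Leaving out 1 library, CHAC1 in the DOT1L KO ran from -0.058 to 0.14 and ASNS between the knockouts from -0.13 to 0.33. In HEL, CEBPB gave 0.058 with upper-quartile scaling and 0.020 with totals, and ran from -0.12 to 0.089 with 1 library left out, where TRIB3 ran from -0.0047 to 0.069. The difference between lines ran from -0.011 to 0.33 for SESN2, and from -6.26 to 0.23 for ASNS, whose lowest value (adjusted p = 0.0391) came without KD library 1, when the KD library left had 0 counts. The cause of these changes was not tested. The replicate numbers were not used as pairs, because not every same-numbered pair correlated over 0.1. In K562 all 7 such pairs were positive (0.053 to 0.220), 4 of them over 0.1, and in HEL the value was 0.00044. In K562, 10 of the 14 pairs with unequal numbers were negative. That is no separate evidence, because centring within each group pushes such pairs below 0. With a replicate block the genes called among the 10 stayed at 6, 5, 6, 5, 9 and 5 for the DOT1L KO, the ENL KO, the knockouts against each other, the HEL KD, the lines and the difference between lines. Leaving out a library of a pair assumes that the lone library varies like the other groups. Low counts limit VLDLR in K562, CHAC1 in HEL and ASNS in both lines. For ASNS, how fragments in the exons shared with CZ1P-ASNS were assigned is not given.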
